A study of Mus musculus with 12 samples.

Results

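Transcript levels of 10 genes of the p53 pathway were followed in 12 mouse RNA-seq libraries: the relatives Trp53 and Trp73, and the targets Mdm2, Cdkn1a, Ccng1, Gadd45a, Bax, Bbc3, Pmaip1 and Sesn2. The members were chosen by gene symbol among the 34303 symbols of the deposited table. Each had 1 entry there, and all 10 passed the filter of at least 1 FPKM in at least 2 libraries, which left 14752 genes for testing. FPKM, the unit of the values, divides a gene's sequenced fragments by transcript length and library size, so levels of different genes can be set side by side. All animals were C57Bl6. The groups were TAp63-/- cutaneous squamous cell carcinoma (cSCC, n = 4), WT cSCC (n = 2), TAp63-/- skin (n = 3) and WT skin (n = 3). The tumours came from mice older than 35 weeks under chronic ultraviolet radiation, 2.5 kJ/m2 given 3 times a week. The skins were dorsal skin of mice aged 4 weeks that had no treatment, so tissue, age and radiation cannot be told apart. TAp63-/- mice lack TAp63, the p63 isoforms with an N-terminal transactivation domain. Which allele the line carries and whether each library came from a separate animal are not stated in the sources used here, so p-values measure the spread between these samples.

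p53 is a transcription factor that is held at low protein levels by the ubiquitin ligase Mdm2 and is stabilised after DNA damage, such as that left by ultraviolet light. Stabilised p53 raises genes that stop the cell cycle, repair DNA, kill the cell or restrain growth, and it also raises Mdm2, which closes a feedback loop. p63 and p73 share its DNA-binding domain and can bind many of the same elements, and in the epidermis p63 is the most abundant of the family. p53 itself is controlled mainly at the protein level, and the Trp53 gene is often mutated in squamous carcinomas exposed to ultraviolet light. RNA levels therefore do not report p53 protein or its activity, and mutations were not analysed here.

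Family members bind pairs of a decamer called the p53 consensus half-site, and the promoters of Ccng1, Cdkn1a, Gadd45a, Mdm2, Trp53 and Bax are shown because they are the members' windows that carry it. RefSeq promoter sequences (GRCm38.p6, 250 bases before to 50 bases after each start) were found for 9 of the 10 genes, Pmaip1 being the one without an entry. Each stretch runs 5′ to 3′ on the strand of the gene, with the matched half-site in capitals and 25 bases on each side.
Ccng1: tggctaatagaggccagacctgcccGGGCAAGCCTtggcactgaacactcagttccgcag
Cdkn1a: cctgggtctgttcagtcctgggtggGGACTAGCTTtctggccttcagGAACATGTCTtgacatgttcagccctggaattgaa
Gadd45a: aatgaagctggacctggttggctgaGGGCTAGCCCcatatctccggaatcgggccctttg
Mdm2: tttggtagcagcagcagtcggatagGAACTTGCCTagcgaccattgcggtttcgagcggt
Trp53: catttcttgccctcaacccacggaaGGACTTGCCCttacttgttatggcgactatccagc
Bax: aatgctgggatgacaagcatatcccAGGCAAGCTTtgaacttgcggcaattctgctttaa
The stretches lie at chr11:40755437-40755496 on the minus strand (Ccng1), chr17:29090881-29090962 on the plus strand (Cdkn1a), chr6:67037413-67037472 on the minus strand (Gadd45a), chr10:117710910-117710969 on the minus strand (Mdm2), chr11:69580259-69580318 on the plus strand (Trp53) and chr7:45467065-45467124 on the minus strand (Bax). The match ended 31 bases before the RefSeq start of Gadd45a, 66 before that of Trp53, 176 before that of Ccng1, 177 before that of Mdm2 and 192 before that of Bax. The RefSeq start used for Gadd45a lies inside the span of the gene in the deposited table, chr6:67035096-67037457. Its match therefore lies inside that span and not before it. In its window at chr17:29090729-29091028 Cdkn1a carried 2 matches, ending 64 and 42 bases before that window's start of transcription. Its other window, chr17:29093519-29093818, held 0. The half-site equals its own reverse complement, so a search of 1 strand covers both. It was present in 6 of 9 members, against 9.55% of 27025 gene symbols with a window. Counted by window, it was in 6 of 13 windows of the members, against 8.36% of all 32851 windows. Among other listed p53 targets with a window it was in 10 of 31 (32.3%). The members were chosen as p53 relatives and targets, so a share above that of all genes is no separate finding. Sesn2, both windows of Trp73 and all 3 windows of Bbc3 held no match. A match of these letters is a description of the window and not a measured binding site.

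A few features of the libraries touch these results. Sex, read from Xist and Y-linked genes, was female in 5 tumours and male in 1 tumour, TAp63-/- replicate 1, and in all 6 skins, so sex and tissue are nearly joined. In WT they are fully joined. Every tissue fit below with sex as a covariate therefore rests on that 1 male tumour and cannot separate sex from tissue in WT. The skins carried RNA of skeletal muscle and the tumours RNA of wound-type keratinocytes, with values given beside Ccng1 and Pmaip1. Basal keratinocyte markers such as Krt5 and Krt14 were expressed in every library, at summed levels of 7739 to 19204 FPKM in TAp63-/- tumours, 8882 and 17692 FPKM in WT tumours, 2861 to 4220 FPKM in TAp63-/- skin and 3729 to 3991 FPKM in WT skin. On the mean log2(FPKM + 1) of the same 7 markers, TAp63-/- tumours (7.61 to 8.25) and TAp63-/- skin (6.98 to 7.77) overlapped. WT tumours (7.53 and 8.01) stayed above WT skin (7.27 to 7.51). Hair follicle markers were uneven inside the skins. In replicate order, their summed level was 13.9, 1334 and 3905 FPKM in TAp63-/- skin and 5006, 2804 and 448 FPKM in WT skin. It was 6.46 to 353 FPKM in TAp63-/- tumours and 16.8 and 3343 FPKM in WT tumours. The part of hair follicles in the member levels was not tested. All 12 libraries share 1 distribution of values, so depth is unknown and no counting interval can be given.

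The 2 members that changed between tumour and skin moved in opposite directions, and they were the same genes in both genotypes. Pmaip1, which encodes the pro-apoptotic BH3-only protein Noxa, rose 11.2-fold in TAp63-/- tumours over TAp63-/- skin and 8.035-fold in WT tumours over WT skin. Ccng1, which encodes the atypical cyclin G1, fell in both tumour groups, its mean being 3.39-fold lower in TAp63-/- tumours and 2.46-fold lower in WT tumours. The other 8 members, among them Cdkn1a, Mdm2 and Bax, passed the test in neither tissue comparison. An adjusted p below 0.05 was required in a limma fit over all tested genes. At that threshold 27.2% of all genes were called between TAp63-/- tumours and TAp63-/- skin and 11.4% between WT tumours and WT skin, and 2 of 10 members were called in each. The median log2 change of the members was -0.066 in the TAp63-/- comparison, beside 0.096 for all tested genes, and -0.026 in the WT comparison, beside 0.041. No member was called between genotypes in either tissue.

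**Figure D1:**
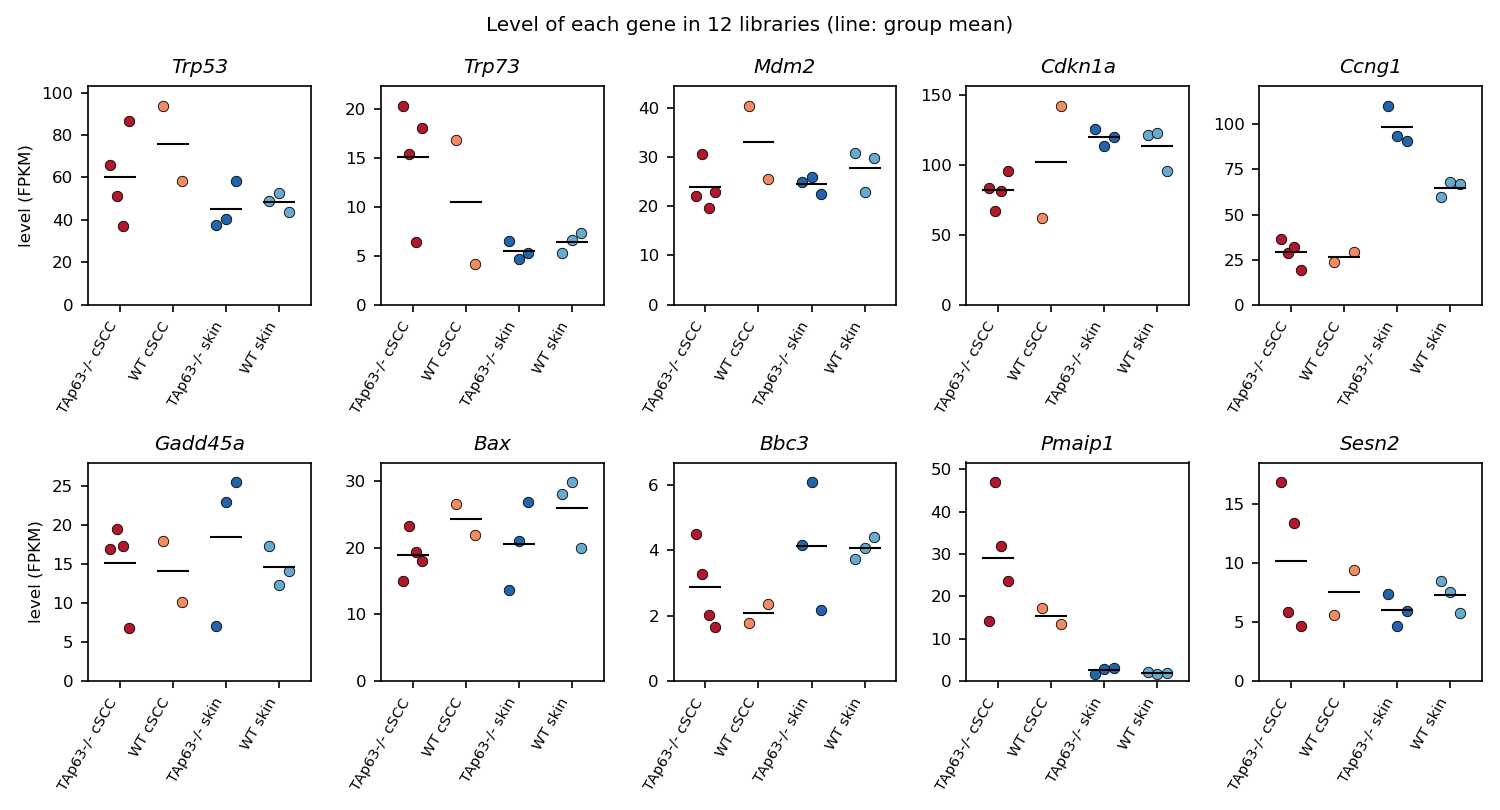
Level of each of the 10 genes in FPKM (vertical axis, linear, starting at 0) in every library of TAp63-/- cSCC (n = 4), WT cSCC (n = 2), TAp63-/- skin (n = 3) and WT skin (n = 3); points are libraries and lines are group means. Pmaip1 lies between 13.5 and 46.9 FPKM in the tumours and between 1.70 and 3.15 FPKM in the skins, while Ccng1 lies between 19.1 and 36.3 FPKM in the tumours and between 59.9 and 110.3 FPKM in the skins.

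The order of the members by mean level was led by Cdkn1a in all 4 groups. Its mean was 81.9 ± 11.6 FPKM in TAp63-/- tumours, 101.9 ± 56.9 FPKM in WT tumours, 119.6 ± 6.16 FPKM in TAp63-/- skin and 113 ± 15.5 FPKM in WT skin (SD, n = 4, 2, 3 and 3). Ccng1 ranked 4th in both tumour groups and 2nd in both skin groups. Pmaip1 ranked 3rd in TAp63-/- tumours and 6th in WT tumours, and it was the lowest of the 10 in both skin groups. Bbc3, which encodes the BH3-only protein Puma, was the lowest in both tumour groups and 9th in both skin groups. Several neighbours in this order lay within each other's spread. In TAp63-/- tumours, for example, Gadd45a averaged 15.1 ± 5.69 FPKM and Trp73 averaged 15.1 ± 6.095 FPKM (SD, n = 4).

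Trp53 (ENSMUSG00000059552, chr11:69580359-69591873 in mm10, plus strand, protein-coding) encodes p53. It had 65.7, 51.1, 37.1 and 86.8 FPKM in the TAp63-/- tumours and 93.7 and 58.1 FPKM in the WT tumours. It had 37.4, 40.4 and 58.1 FPKM in the TAp63-/- skins and 48.9, 52.7 and 43.7 FPKM in the WT skins. Its transcript was thus present in every tumour, and both WT tumours lay above all WT skins while the TAp63-/- groups overlapped. The log2 change was 0.36 (95% interval -0.27 to 0.99, adjusted p = 0.374) between TAp63-/- tumours and TAp63-/- skin. Between WT tumours and WT skin it was 0.60 (-0.15 to 1.35, adjusted p = 0.278). Log2 changes throughout are on the scale of log2(FPKM + 1), which understates the change of low genes.

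Trp73 (ENSMUSG00000029026, chr4:154056253-154140208, minus strand, protein-coding) encodes p73, whose isoforms with and without the transactivation domain are summed in the gene's value. It had 20.3, 15.4, 6.45 and 18.1 FPKM in the TAp63-/- tumours and 16.8 and 4.135 FPKM in the WT tumours. All 6 skins lay low and close together, at 6.50, 4.66 and 5.26 FPKM in TAp63-/- skin and 5.27, 6.65 and 7.33 FPKM in WT skin. A total of 4 tumours stood at least at 15.4 FPKM, and 1 tumour of each genotype lay at the level of skin. The log2 change was 1.22 (SE 0.43, 0.27 to 2.16) between TAp63-/- tumours and TAp63-/- skin, with an adjusted p of 0.0569. Without the low TAp63-/- tumour, replicate 3, it was 1.55 with an adjusted p of 0.0157, and with libraries weighted by their spread it was 1.43 with an adjusted p of 0.00782. In WT the change was 0.38 (-0.76 to 1.51, adjusted p = 0.681). The difference between the genotypes' changes was 0.84 (-0.63 to 2.32, adjusted p = 1). The gene overlaps entries for Gm13116 and a SNORA48 copy, the first at most at 0.120 FPKM and the second listed at 0 in every library.

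The value for Trp63, the family member altered in these mice, sums the isoforms with and without the transactivation domain and is no check on the missing TAp63. Trp63 had 245, 109, 164 and 258 FPKM in TAp63-/- tumours, 141 and 97.3 FPKM in WT tumours, 111, 98.2 and 84.5 FPKM in TAp63-/- skin and 113, 100.4 and 119 FPKM in WT skin. It was therefore well expressed in both genotypes. The change between TAp63-/- tumours and TAp63-/- skin was 0.90 (SE 0.29, adjusted p = 0.0377), and in 6 of the 7 fits that left out 1 library of these groups the call was lost (adjusted p up to 0.116). The WT change was 0.08 (adjusted p = 0.904), and the difference between the changes was 0.82 (-0.16 to 1.80, adjusted p = 1).

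Mdm2 (ENSMUSG00000020184, chr10:117688888-117710758, minus strand, protein-coding), the ligase that marks p53 for degradation and is itself a p53 target, lay between 19.7 and 40.35 FPKM in all 12 libraries. It had 22.1, 30.5, 19.7 and 22.9 FPKM in TAp63-/- tumours and 40.35 and 25.5 FPKM in WT tumours. In skin it had 24.8, 26.0 and 22.4 FPKM in TAp63-/- animals and 30.8, 22.9 and 29.9 FPKM in WT animals. Only WT tumour replicate 1 stood above the skins. Its log2 change was -0.05 (-0.50 to 0.40, adjusted p = 0.879) for TAp63-/- tumours against TAp63-/- skin and 0.21 (-0.33 to 0.75, adjusted p = 0.617) for WT tumours against WT skin. These intervals do not show equal levels, since changes of the size of their bounds stay within them.

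Cdkn1a (ENSMUSG00000023067, chr17:29090979-29100722, plus strand, protein-coding) encodes p21, the inhibitor of cyclin-dependent kinases through which p53 halts the cycle. It had 83.6, 67.3, 81.4 and 95.4 FPKM in TAp63-/- tumours, against 125, 113 and 120.1 FPKM in TAp63-/- skin, and these groups did not overlap. Its log2 change was -0.55 (SE 0.25, -1.11 to 0.01), and it did not pass the test (adjusted p = 0.129). The WT tumours had 61.6 and 142 FPKM, the lowest and the highest values of all 12 libraries, against 121, 123 and 95.35 FPKM in WT skin (change -0.26, adjusted p = 0.618). Without WT tumour replicate 2, the high one, the change was -0.86 with an adjusted p of 0.0499. That tumour also had the highest summed level of 6 suprabasal keratinocyte markers among the tumours, 6062 FPKM, against 658 to 3776 FPKM in the TAp63-/- tumours and 2073 FPKM in the other WT tumour. The part of differentiated keratinocytes or of other skin cells in the Cdkn1a levels was not tested. In bulk tissue fewer cells of a type and less RNA per cell cannot be told apart.

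Ccng1 (ENSMUSG00000020326, chr11:40748552-40755311, minus strand, protein-coding) is a direct p53 target whose protein works with protein phosphatase 2A in the control of Mdm2. It had 36.3, 28.6, 32.1 and 19.1 FPKM in TAp63-/- tumours, against 110.3, 93.8 and 91.0 FPKM in TAp63-/- skin. It had 23.5 and 29.3 FPKM in WT tumours, against 59.9, 67.8 and 67.01 FPKM in WT skin. Every tumour lay below every skin. The fitted change was -1.76 (SE 0.21, -2.22 to -1.30, adjusted p = 0.000184) in TAp63-/- and -1.27 (SE 0.25, -1.82 to -0.73, adjusted p = 0.00924) in WT. The difference between these changes was -0.48 (-1.20 to 0.23) and did not pass the test (adjusted p = 1). Without WT tumour replicate 1 the WT change was -1.12 with an adjusted p of 0.0936, and with the sex of the animal as a covariate it was -0.81 (adjusted p = 0.271).

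Of the 10 members, Ccng1 was the one whose genotypes did not overlap within a tissue. All 3 TAp63-/- skins stood above all 3 WT skins, with means of 98.35 ± 10.4 FPKM in TAp63-/- skin and 64.9 ± 4.32 FPKM in WT skin (SD, n = 3 each), a 1.515-fold difference. The fitted change was 0.59 (SE 0.12, 0.30 to 0.88), with an unadjusted limma p of 0.00241 and an adjusted p of 0.849, so it failed the correction over all genes. Of all tested genes, 10.6% did not overlap between these groups of 3. In the tumours the 2 genotypes overlapped (change 0.11, -0.62 to 0.83, adjusted p = 1).

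Skeletal muscle RNA moved with tissue in the same direction as Ccng1. The summed level of 11 muscle markers, such as Acta1 and Ckm, was 77.2 to 467 FPKM in TAp63-/- tumours and 154 and 1152 FPKM in WT tumours, against 12074 to 18217 FPKM in TAp63-/- skin and 10226 to 11705 FPKM in WT skin. No marker of this list was at 0 in a whole group. Within skin, the TAp63-/- sums lay above the WT sums, as Ccng1 did, with the highest of both in TAp63-/- skin replicate 1. The muscle level used as a covariate was instead the mean log2(FPKM + 1) of these markers. On that measure the skin genotypes overlapped, at 9.38 to 9.92 in TAp63-/- skin and 9.03 to 9.39 in WT skin. With muscle level as a covariate, Ccng1 was -0.95 (adjusted p = 0.514) for TAp63-/- tumours against TAp63-/- skin and -0.66 (adjusted p = 0.637) for WT tumours against WT skin. In TAp63-/- skin against WT skin it was 0.50 (adjusted p = 0.864). The covariate fully separates tumours from skins, so tissue and muscle cannot be told apart in that fit, which called only 8 and 7 genes in the 2 tissue comparisons. In replicate order, the muscle sums were 467, 452, 77.2 and 97.9 FPKM in TAp63-/- tumours and 154 and 1152 FPKM in WT tumours. The Ccng1 levels in that order were 36.3, 28.6, 32.1 and 19.1 FPKM in TAp63-/- and 23.5 and 29.3 FPKM in WT. The relation inside the tumours was not tested. The summed level of 6 fibroblast markers also moved with Ccng1, at 522 to 1509 FPKM in TAp63-/- tumours and 839 and 840.2 FPKM in WT tumours, against 2893 to 5076 FPKM in TAp63-/- skin and 1748 to 3165 FPKM in WT skin, with none at 0 in a whole group and their part in the result not tested.

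**Figure D2:**
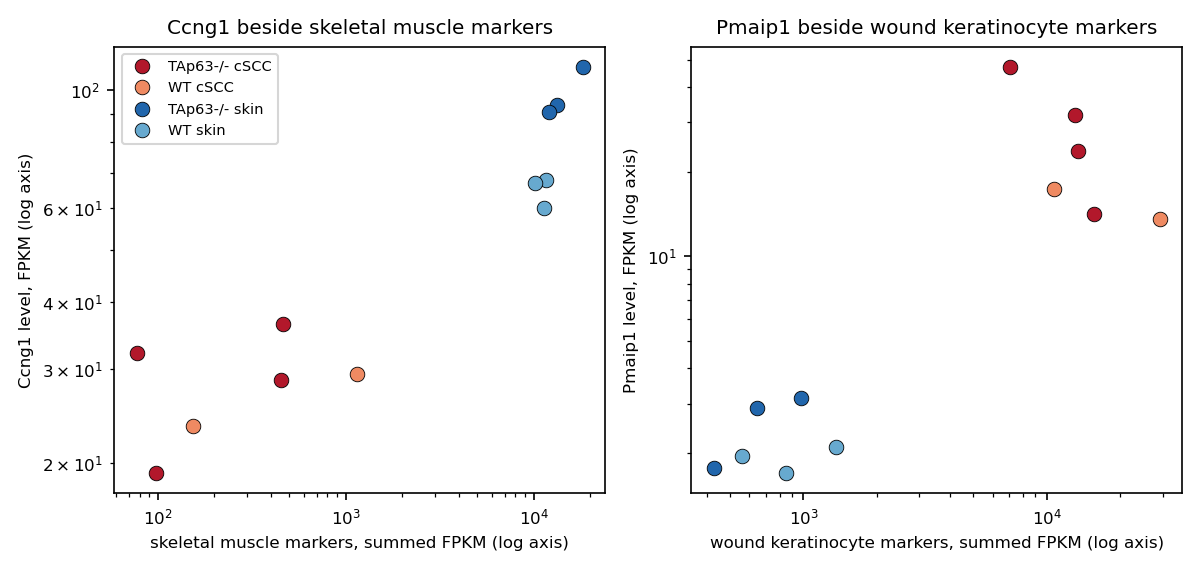
Left, Ccng1 in FPKM against the summed FPKM of 11 skeletal muscle markers; right, Pmaip1 in FPKM against the summed FPKM of 6 wound keratinocyte markers; all axes are logarithmic and each point is 1 of 12 libraries, coloured by group. Tumours and skins form separate clusters on both horizontal axes, with muscle sums of at most 1152 FPKM in tumours and at least 10226 FPKM in skins.

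Gadd45a (ENSMUSG00000036390, chr6:67035096-67037457, minus strand, protein-coding), a stress sensor that acts in growth arrest and DNA repair, varied widely inside groups. It had 16.9, 19.5, 17.3 and 6.73 FPKM in TAp63-/- tumours, 17.9 and 10.1 FPKM in WT tumours, 7.06, 22.9 and 25.4 FPKM in TAp63-/- skin and 17.3, 12.3 and 14.0 FPKM in WT skin. All groups overlapped. The change was -0.19 (-1.17 to 0.79, adjusted p = 0.785) in TAp63-/- and -0.09 (-1.26 to 1.09, adjusted p = 0.937) in WT, on wide intervals. Its locus overlaps the entry E230016M11Rik, at most at 2.17 FPKM, on the other strand, and the library kit does not mark strand.

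Among the apoptosis genes, Bax (ENSMUSG00000003873, chr7:45461695-45466898, minus strand, protein-coding) encodes a protein that forms pores in the outer mitochondrial membrane. It had 14.96, 23.3, 19.4 and 18.1 FPKM in TAp63-/- tumours, 26.6 and 21.98 FPKM in WT tumours, 13.7, 21.1 and 26.9 FPKM in TAp63-/- skin and 28, 29.8 and 19.98 FPKM in WT skin. The tissues overlapped in both genotypes, with a change of -0.08 (-0.61 to 0.45, adjusted p = 0.831) in TAp63-/- and of -0.08 (-0.71 to 0.56, adjusted p = 0.895) in WT. Bax overlaps the GENCODE gene Gm45808 on the same strand, so its value is uncertain where the genes share sequence.

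Bbc3 (ENSMUSG00000002083, chr7:16309616-16318205, plus strand, protein-coding) encodes Puma, which frees Bax and Bak by binding the anti-apoptotic Bcl2 proteins. It had 4.51, 3.28, 2.03 and 1.65 FPKM in TAp63-/- tumours, against 4.15, 6.08 and 2.17 FPKM in TAp63-/- skin. It had 1.77 and 2.37 FPKM in WT tumours, against 3.745, 4.07 and 4.42 FPKM in WT skin. Both WT tumours lay below all WT skins, while the TAp63-/- groups overlapped. The change was -0.39 (-1.07 to 0.28, adjusted p = 0.363) in TAp63-/- and -0.73 (-1.53 to 0.07, adjusted p = 0.217) in WT.

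Pmaip1 (ENSMUSG00000024521, chr18:66458604-66465550, plus strand, protein-coding) encodes Noxa, which binds and neutralises the anti-apoptotic protein Mcl1. It had 14.15, 46.9, 31.9 and 23.7 FPKM in TAp63-/- tumours, against 1.77, 2.91 and 3.15 FPKM in TAp63-/- skin. It had 17.3 and 13.5 FPKM in WT tumours, against 2.11, 1.70 and 1.95 FPKM in WT skin. The lowest tumour stood above the highest skin, so the tissues were fully separated in both genotypes. The log2 change was 2.96 (SE 0.33, 2.24 to 3.69, adjusted p = 0.000124) in TAp63-/- and 2.48 (SE 0.39, 1.62 to 3.35, adjusted p = 0.0034) in WT. Bbc3, the other BH3-only gene of the set, had changes of -0.39 and -0.73 in the same comparisons and did not pass, and the difference between the genes was not tested.

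A total of 3 of the 4 TAp63-/- tumours had more Pmaip1 than either WT tumour, and the remaining one, replicate 1, lay between the 2 WT values. The change between TAp63-/- and WT tumours was 0.76 (SE 0.46, -0.32 to 1.85, adjusted p = 1). The difference between the genotypes' tissue changes was 0.48 (-0.65 to 1.61, adjusted p = 1). With sex as a covariate, Pmaip1 kept its call in TAp63-/-, and the WT change was 1.32 with an adjusted p of 0.169. Sex and tissue are fully joined in WT, so that fit cannot separate them there. With muscle level as a covariate the changes were 2.38 (adjusted p = 0.36) in TAp63-/- and 2.04 (adjusted p = 0.411) in WT.

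Markers of wound-type keratinocytes (Krt6a, Krt6b, Krt16, Krt17, Sprr1b and Sprr2d) were higher in tumours along with Pmaip1. Their summed level was 7104 to 15717 FPKM in TAp63-/- tumours and 10683 and 29184 FPKM in WT tumours, against 428 to 978 FPKM in TAp63-/- skin and 561 to 1366 FPKM in WT skin. None of the 6 was at 0 in a whole group, and their part in the Pmaip1 levels was not tested. In replicate order, these sums were 15717, 7104, 13089 and 13438 FPKM in TAp63-/- tumours and 10683 and 29184 FPKM in WT tumours. The Pmaip1 levels in that order were 14.15, 46.9, 31.9 and 23.7 FPKM in TAp63-/- and 17.3 and 13.5 FPKM in WT. The relation inside the tumours was not tested. The summed level of 5 neutrophil markers (Csf3r, Cxcr2, S100a8, S100a9 and Ly6g) was also higher in every tumour than in every skin. It was 448 to 21140 FPKM in TAp63-/- tumours and 1607 and 2475 FPKM in WT tumours, against 6.51 to 136 FPKM in TAp63-/- skin and 16.7 to 46.6 FPKM in WT skin. S100a8 and S100a9, which stressed keratinocytes also express, made up most of these sums, and Ly6g was at 0 in all WT skins and at most at 0.893 FPKM elsewhere. Csf3r was at 2.49 to 15.75 FPKM in TAp63-/- tumours and at 2.91 and 9.71 FPKM in WT tumours, against at most 1.94 FPKM in skin. Cxcr2 was at 3.68 to 9.06 FPKM and at 4.82 and 7.015 FPKM in the same tumours, against at most 0.517 FPKM in skin. In replicate order, the neutrophil sums were 21140, 2491.5, 448 and 5117 FPKM in TAp63-/- tumours and 2475 and 1607 FPKM in WT tumours. The part of neutrophils in the Pmaip1 levels was not tested.

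Sesn2 (ENSMUSG00000028893, chr4:132492032-132510501, minus strand, protein-coding) encodes sestrin 2, a leucine sensor that restrains the growth kinase complex mTORC1. It had 16.9, 5.90, 13.4 and 4.645 FPKM in TAp63-/- tumours, 5.65 and 9.45 FPKM in WT tumours, 7.37, 4.71 and 5.98 FPKM in TAp63-/- skin and 8.50, 7.55 and 5.77 FPKM in WT skin. TAp63-/- tumour replicates 1 and 3 and WT tumour replicate 2 stood above all skins, and the other tumours lay at or just below the level of skin. The change was 0.53 (-0.31 to 1.37, adjusted p = 0.326) in TAp63-/- and 0.03 (-0.98 to 1.03, adjusted p = 0.98) in WT. The overlapping entry Gm12981 was at most at 0.184 FPKM.

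**Figure D3:**
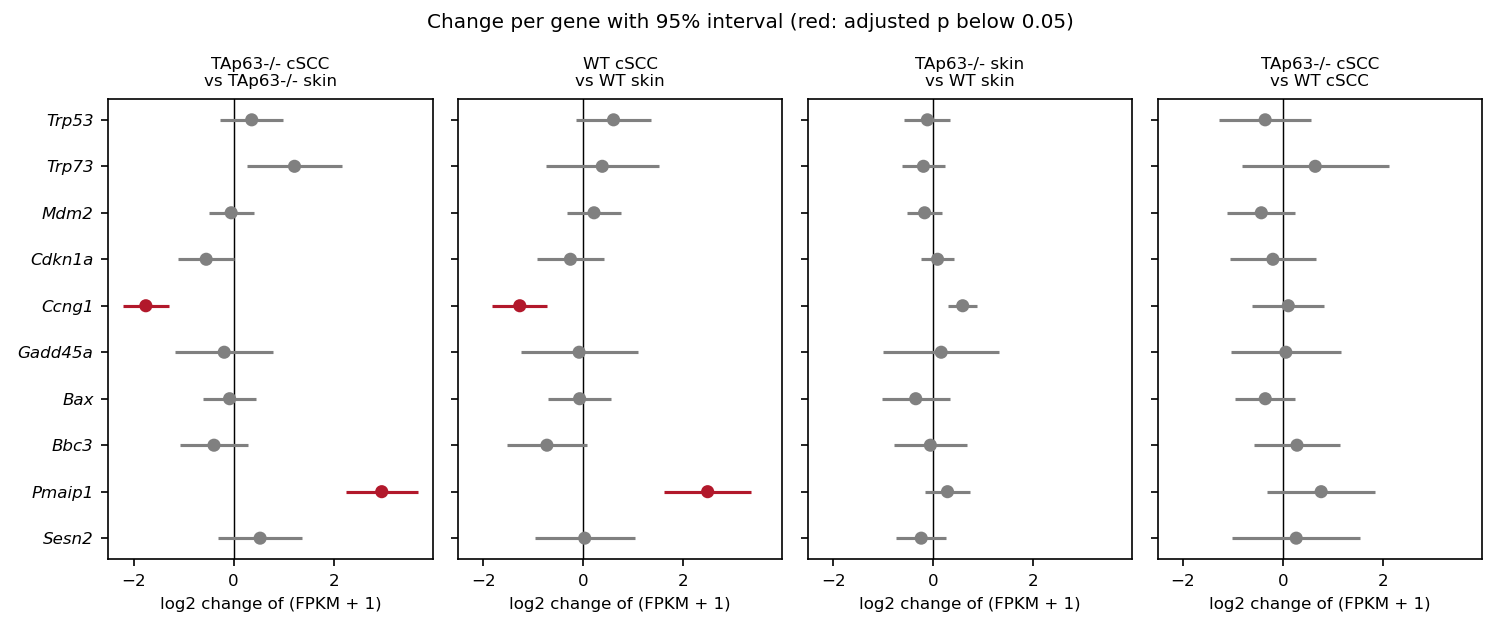
Log2 change of (FPKM + 1) of each gene with its 95% interval from limma, for tumour against skin in each genotype and for TAp63-/- against WT in each tissue; points in red have an adjusted p below 0.05. Pmaip1 (2.96 and 2.48) and Ccng1 (-1.76 and -1.27) are the called points, both in the 2 tissue comparisons, and no point is called between genotypes.

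Counted by separation alone, 3 members did not overlap between TAp63-/- tumours and TAp63-/- skin (Pmaip1 higher, Ccng1 and Cdkn1a lower), beside 34% of all tested genes. Between WT tumours and WT skin 4 did not overlap (Pmaip1 and Trp53 higher, Ccng1 and Bbc3 lower), beside 52.8% of all tested genes. With 2 tumours in that comparison, separation is frequent. Of the members, 1 (Ccng1) did not overlap between TAp63-/- and WT skin, and 0 of 10 did between TAp63-/- and WT tumours, where 9.85% of tested genes were separated.

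The genotypes were compared within each tissue, which asks whether these genes differ where TAp63 is missing. None of the 10 members passed in TAp63-/- skin against WT skin, beside 0.0203% of all genes. In limma 1 member, Ccng1, had an unadjusted p below 0.05, beside 738 of all 14752 genes. The median change of the members was -0.087 beside 0.016 for all genes. None passed in TAp63-/- tumours against WT tumours, where 0% of all genes were called. There 0 members had an unadjusted p below 0.05, beside 419 of all genes. For the interaction of genotype and tissue, 0.0271% of all genes and 0 members were called, again with 0 members at an unadjusted p below 0.05, beside 444 of all genes. The intervals in the tumours were wide. Mdm2 was -0.43 (-1.12 to 0.25), Trp53 was -0.36 (-1.28 to 0.56) and Trp73 was 0.64 (-0.82 to 2.11) in TAp63-/- against WT tumours, so sizeable changes in either direction stay within the intervals at 4 against 2 libraries. In skin the intervals were narrower for some members, with Cdkn1a at 0.09 (-0.24 to 0.41) and Mdm2 at -0.17 (-0.53 to 0.18).

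A wider list of 40 other p53 targets was read from the same fits, 37 of them tested. Between TAp63-/- tumours and TAp63-/- skin, 8 rose, 4 fell and 25 did not pass, 32.4% beside 27.2% of all genes. Between WT tumours and WT skin, 3 rose, 3 fell and 31 did not pass, 16.2% beside 11.4%. The median change of the list was 0.27 in TAp63-/- and 0.03 in WT, with calls in both directions. None passed between genotypes in skin, between genotypes in tumours or for the interaction. At an unadjusted limma p below 0.05 there were 2, 1 and 1 of the 37, beside 738, 419 and 444 of all 14752 genes. The muscle covariate ended the calls of all 25 genes outside the members that the rule for named genes took from the lists in TAp63-/- and of all 8 in WT. The sex covariate ended 19 of 25 in TAp63-/-, those of Tnfrsf10b, Eda2r, Ephx1, Ptp4a3 and Gadd45g being among the calls that stayed. It ended 8 of 8 in WT, where sex fully separates tumours from skins.

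The death receptor gene Tnfrsf10b rose by 1.41 (adjusted p = 0.000224) in TAp63-/- and by 1.25 (adjusted p = 0.00435) in WT, with 5.29 to 6.60 FPKM in TAp63-/- tumours and 3.99 and 6.37 FPKM in WT tumours, against 1.42 to 1.66 FPKM in TAp63-/- skin and 1.32 to 1.68 FPKM in WT skin. Eda2r, a receptor of the same superfamily, moved the other way, at -1.70 (adjusted p = 0.000725) in TAp63-/- and -1.36 (adjusted p = 0.0164) in WT. The calls of Tnfrsf10b held in every fit that left out 1 library of the groups compared. That of Eda2r held in all 7 such fits for TAp63-/- and was lost in WT without tumour replicate 1 or without skin replicates 1 or 3 (adjusted p up to 0.119).

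Of the 12 cell cycle arrest and growth targets, Cdkn1a, Ccng1 and Gadd45a included, 4 rose and 2 fell in TAp63-/- tumours, beside 27.2% of all genes called. Those that rose included Sfn (1.62, adjusted p = 0.00703), which encodes the epithelial protein 14-3-3 sigma, Plk2 (0.98, adjusted p = 0.0135), a polo-like kinase, and Gtse1 (1.06, adjusted p = 0.0312), a microtubule protein that moves p53 out of the nucleus. Ptp4a3, a phosphatase gene, fell by 1.33 on the log2 scale (adjusted p = 0.00718) alongside Ccng1. In WT tumours Plk2 rose (1.003, adjusted p = 0.048), and Ccng1 and Ptp4a3 (-1.46, adjusted p = 0.0221) fell, beside 11.4% of all genes called. In TAp63-/- the Plk2 call was lost without skin replicate 1 or 2 (adjusted p up to 0.0528) and that of Gtse1 in 5 of 7 fits that left out a library (up to 0.12). In WT the calls of Plk2 and Ptp4a3 were each lost in 4 of 5 such fits (up to 0.307 for Plk2 and 0.129 for Ptp4a3).

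Of 14 tested apoptosis targets, 3 rose (Pmaip1, Tnfrsf10b and Aen, a nuclease gene at 0.65, adjusted p = 0.0426) and 1 fell (Eda2r) in TAp63-/- tumours. In WT tumours 2 rose (Pmaip1 and Tnfrsf10b) and 1 fell (Eda2r). The counts of this list and of those that follow here stand beside 27.2% of all genes in TAp63-/- and 11.4% in WT. The Aen call was lost in 6 of 7 fits that left out a library (adjusted p up to 0.143). None of the 7 DNA repair and nucleotide targets passed in either comparison. Xpc and Ddb2, which recognise ultraviolet lesions, were at 0.29 (adjusted p = 0.325) and 0.34 (adjusted p = 0.336) in TAp63-/- and at -0.27 (adjusted p = 0.512) and 0.19 (adjusted p = 0.722) in WT. Of 11 tested metabolism, stress and secreted targets, 2 rose and 2 fell in TAp63-/- tumours. Those that rose included the thiamine transporter gene Slc19a2 (1.12, adjusted p = 0.0159, and 0.0606 without TAp63-/- skin replicate 3). Those that fell were Ephx1, an epoxide hydrolase gene at -2.48 (adjusted p = 0.00021), and Sesn1, the sestrin relative of Sesn2, at -0.85 (adjusted p = 0.0105). Sesn1 also fell in WT tumours (-1.004, adjusted p = 0.0222), a call lost in 4 of 5 fits that left out a library (adjusted p up to 0.203).

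**Figure D4:**
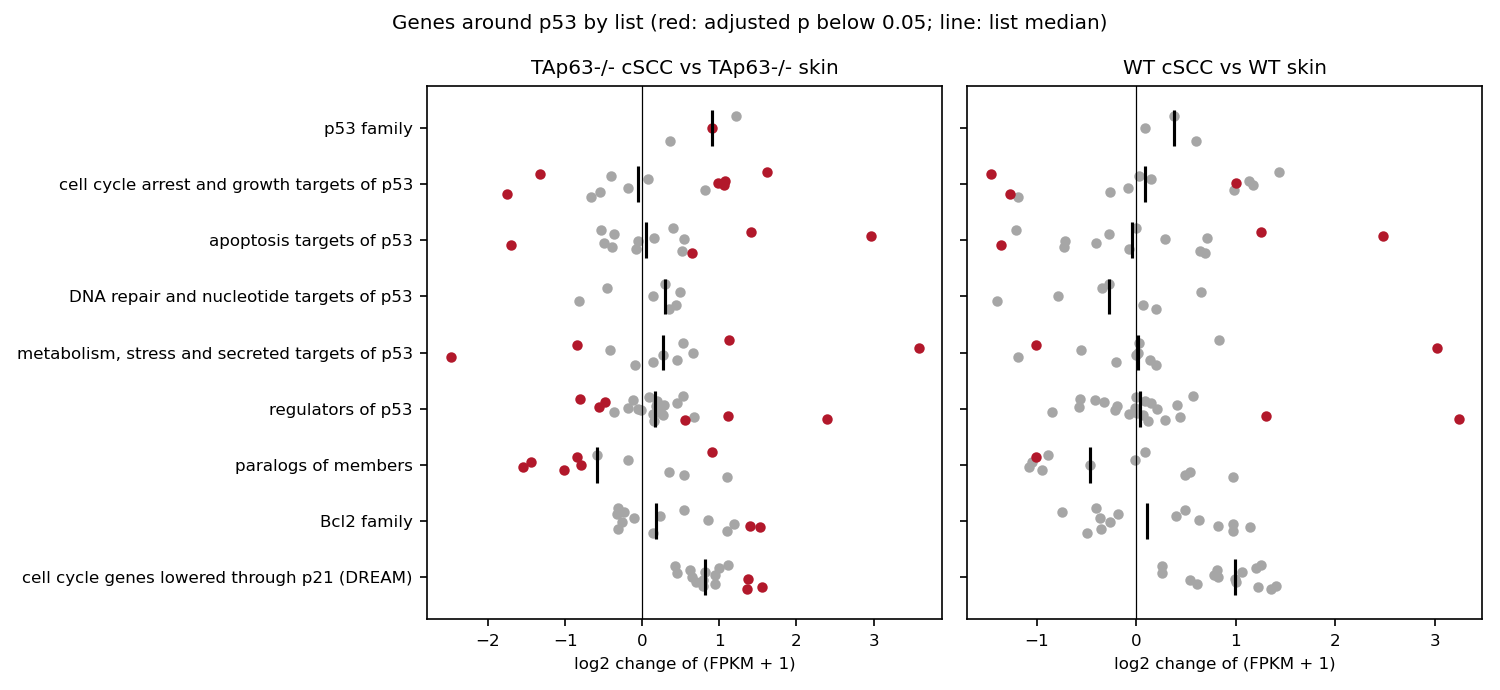
Log2 change of (FPKM + 1) between tumour and skin for every tested gene of 9 lists around p53, in TAp63-/- (left) and WT (right); red points have an adjusted p below 0.05 and the vertical bars mark list medians. The cell cycle genes lowered through p21 lie right of 0 in both panels, with medians of 0.82 and 0.99, and the target lists spread to both sides.

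Regulators of p53 were read as a list of 22 tested genes, Mdm2 included. In TAp63-/- tumours 3 rose and 3 fell, 6 of 22 beside 27.2% of all genes, and in WT tumours 2 rose and 0 fell, 2 of 22 beside 11.4%, so the shares called were near or below those of all genes. Cdkn2a, whose Arf product inhibits Mdm2 and whose Ink4a product inhibits the kinases Cdk4 and Cdk6, rose in both, by 2.39 (adjusted p = 0.00538) in TAp63-/- and by 3.24 (adjusted p = 0.00689) in WT. It had 28.1 to 53.9 FPKM in TAp63-/- tumours and 93.6 and 28.2 FPKM in WT tumours, against 4.28 to 11.4 FPKM in TAp63-/- skin and 1.79 to 8.70 FPKM in WT skin, the value not separating the products. The checkpoint kinase gene Chek2 rose by 1.12 (adjusted p = 0.0203) in TAp63-/- and by 1.31 (adjusted p = 0.0422) in WT. Atr, a kinase gene of the damage response, rose by 0.56 (adjusted p = 0.0351) in TAp63-/-. Trp53bp2 and Ppp1r13b, which encode the cofactors ASPP2 and ASPP1, and Rfwd2, which encodes the p53 ligase Cop1, fell in TAp63-/- by 0.81, 0.57 and 0.48 on the log2 scale (adjusted p = 0.00973, 0.0457 and 0.0222). Mdm4, the partner of Mdm2, was at -0.19 (adjusted p = 0.416) in TAp63-/- and -0.01 (adjusted p = 0.978) in WT. In TAp63-/- the Chek2 call was lost without skin replicate 1 (adjusted p = 0.0913), and those of Atr, Rfwd2 and Ppp1r13b were lost in 5, 4 and 7 of 7 fits that left out a library. In WT the Cdkn2a call was lost without tumour replicate 1 (adjusted p = 0.0865) and that of Chek2 in 4 of 5 such fits (adjusted p up to 0.335).

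Cell cycle genes that p53 lowers through p21 and the DREAM complex, a repressor assembly of E2F and pocket proteins, lay on the positive side in tumours. All 15 had a positive change in both genotypes, with medians of 0.82 in TAp63-/- and 0.99 in WT beside 0.096 and 0.041 for all genes. Of these, 3 of 15 passed in TAp63-/-, beside 27.2% of all genes. They were the mitotic genes Cdc20 (1.37, adjusted p = 0.00628), Aurka (1.36, adjusted p = 0.0156) and Birc5 (1.55, adjusted p = 0.0269). None passed in WT, beside 11.4% of all genes. There Aurka was at 1.35 (adjusted p = 0.0598) and Cdc20 at 0.99 (adjusted p = 0.0926). The Aurka call was lost without TAp63-/- skin replicate 1 or 2 (adjusted p up to 0.071) and that of Birc5 without TAp63-/- tumour replicate 3 or 4 or skin replicate 1 (up to 0.095). With muscle level as a covariate both changes turned negative.

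Relatives of the members formed a list of their own. Of 11 paralogs, 1 rose (Trp63) and 5 fell in TAp63-/- tumours, among them Cdkn1c (-1.55, adjusted p = 0.0058), which encodes the p21 relative p57, and Gadd45g (-1.44, adjusted p = 0.00256). In WT tumours 0 rose and 1 fell (Sesn1). The paralog counts stand beside 27.2% of all genes in TAp63-/- and 11.4% in WT. The closest relative of Ccng1, Ccng2, was at 0.35 (adjusted p = 0.269) in TAp63-/- and 0.54 (adjusted p = 0.207) in WT, on the other side of 0 from Ccng1. Of 14 tested genes of the Bcl2 family outside the members, 2 rose in TAp63-/- tumours, Bcl2a1a (1.53, adjusted p = 0.00951) and Bcl2a1b (1.39, adjusted p = 0.0299). These are near-identical copies that can share reads, so their values are uncertain, and the Bcl2a1b call was lost in 4 of 7 fits that left out a library (adjusted p up to 0.102). The 2 calls of 14 stand beside 27.2% of all genes, and none of the 14 passed in WT. The neutrophil markers given beside Pmaip1 were higher in the same tumours, while the summed level of 5 general leukocyte markers overlapped between the tissues, at 95.1 to 658 FPKM in TAp63-/- tumours and 258 to 360.4 FPKM in TAp63-/- skin, and the part of either cell type in the Bcl2a1a and Bcl2a1b levels was not tested.

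Likeness between genes was described by Pearson's r of log2(FPKM + 1) after each group's mean was taken away, over all 12 libraries, which all belong to the same 4 groups. Among members the highest values were those of Sesn2 with Ccng1 (0.819), Trp73 with Trp53 (0.715) and Pmaip1 with Bax (0.69), and the lowest was that of Cdkn1a with Mdm2 (-0.769). Across tested genes with a mean of at least 5 FPKM, 9195 in number (9196 for Bbc3), the genes most like Cdkn1a were Cdsn (0.958), Tgm1 (0.952) and Tubb2a (0.939). Cdsn and Tgm1 encode corneodesmosin and transglutaminase 1 of the cornified layer. Among those most like Ccng1 were St3gal3 (0.963) and Ginm1 (0.952), and those most like Pmaip1 were Wbp5 (0.961), Pias2 (0.955) and Whsc1 (0.953). Pias2 encodes a SUMO ligase and Whsc1 a histone methyltransferase. For Trp53 they were Gtf2i (0.953), Rhno1 (0.95) and Strbp (0.946), and for Trp73 they were Lrch4 (0.968), Mbnl2 (0.949) and Rnf44 (0.945). For Mdm2 they were Ikbkb (0.919), Thoc2 (0.916) and Tmem184c (0.904), and for Gadd45a Ccdc23 (0.933), Rab31 (0.92) and Magohb (0.904). Ikbkb encodes a kinase that activates NF-kappa-B. For Bax they were Col12a1 (0.958), Dbn1 (0.956) and Nek6 (0.936), Col12a1 encoding a collagen chain of the stroma. For Bbc3 they were Laptm4a (0.943), Nenf (0.924) and Herpud2 (0.922), and for Sesn2 Tfpt (0.951), Pacs1 (0.926) and Atp5j (0.918). Being the highest of so many values over 12 libraries, they describe these libraries only.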

How the data were processed

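RNA was measured by sequencing in 12 libraries made with the Ambion miRVANA total RNA and Illumina TruSeq RNA kits, per the labels' protocols. Per the submitters' processing notes, the authors used TopHat2 2.0 and Cufflinks 2.0 with the build mm10. That the deposited table holds FPKM was inferred from that tool and the size of the numbers. Each library summed to between 780180 and 780251 FPKM, and at least 99.98% of sorted values with a median of at least 1 FPKM lay within 1% of the common value in every library. Quantile normalization by the authors was inferred from this, and it fixes each library's spread of values whatever its depth. From these FPKM values, the 37924 entries were brought to 34303 symbols by summing 272 repeated symbols. The scale was log2(FPKM + 1), with at least 1 FPKM required in at least 2 libraries. limma 3.58.1 (R 4.3.3) was fitted over all 14752 genes with a variance trend, two-sided, with Benjamini-Hochberg adjustment and a threshold of 0.05; every p of a gene is limma's. Tissue comparisons and the interaction used all 12 libraries, and genotype comparisons the 6 of that tissue. The procedure was tested on simulated data. Replicates are numbered in accession order and were not paired.

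The members and lists were chosen with earlier results of these data known. All 10 members and Trp63 are named, then up to 3 called genes a direction of each list and the 3 genes most like each member. Some genes that this rule takes are not reported here. Overlaps come from GENCODE M21 and promoters from RefSeq. Of the listed genes, Pidd1 and Tigar had no row under these symbols, Cop1 was read as Rfwd2, and Gdf15 and Hrk did not pass the filter. Alternatives were another pseudocount, filter, scaling, variance model, set of libraries, library weights, a muscle or sex covariate, unsummed entries and each library left out.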

Additional observations from a re-analysis of the deposited data

Results flagged for a closer look

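Gadd45a in the TAp63-/- tumours had 1 library far from the rest. Replicate 4 had 6.73 FPKM, while the other 3 TAp63-/- tumours had 16.9 to 19.5 FPKM. On the scale of log2(FPKM + 1), the gap between the lowest value and its nearest neighbour was 0.862 of the range of the group. That is above the 95% critical value of Dixon's test for 4 samples. In FPKM the same gap is a smaller part of the range and lies below that critical value, so the mark depends on the scale. The TAp63-/- tumours were the only group of at least 4 samples, so 10 members were examined there. Chance alone is expected to mark about 1 in 20 of such groups. It was the lowest value of the 12 libraries, and the next lowest was 7.06 FPKM in TAp63-/- skin replicate 1. Without that tumour the members called between TAp63-/- tumours and TAp63-/- skin were 2, as with it.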

How the results depend on the processing

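Depth is unknown, so what counting error adds cannot be given, and 2 WT tumours limit every comparison that uses them. With muscle level as a covariate, 0 members were called between TAp63-/- tumours and TAp63-/- skin and 0 between WT tumours and WT skin, and 8 and 7 genes in all. With sex as a covariate, 0 members were called between WT tumours and WT skin and 255 genes in all. In TAp63-/- both member calls stayed, among 1939 genes. The sex covariate rests on 1 male TAp63-/- tumour and fully separates WT tumours from WT skins. Leaving out 1 library gave 2 to 3 members for TAp63-/- and 1 to 3 for WT, the 1 without WT tumour replicate 1 and the 3 without WT tumour replicate 2 (the lone tumour is then assumed to vary like the other groups). No member passed between genotypes or for the interaction under any alternative, and no called change of a member turned its sign. Under the muscle covariate, changes between TAp63-/- tumours and TAp63-/- skin turned for Trp63 (-0.11), Sesn1 (0.31), Gtse1 (-0.83), Aurka (-0.67), Birc5 (-0.86), Cdkn2a (-0.19), Chek2 (-0.87) and Atr (-0.33), and between WT tumours and WT skin for Chek2 (-0.21). That covariate fully separates the tissues, and causes were not tested further. Genes called ran from 8 to 5012 for TAp63-/- tumours (4017 as reported) and from 7 to 1949 for WT tumours (1687 as reported). They ran from 0 to 8 between skins, 0 to 11 between tumours and 1 to 15 for the interaction. Leaving out 1 library moved the tissue counts over 1.5 times for TAp63-/- skin replicate 1 (2432), WT tumour replicate 1 (464) and WT skin replicates 1, 2 and 3 (994, 752 and 748). It did so between skins (3 as reported) for WT skin replicates 1, 2 and 3 (5, 8 and 6), and between tumours (0 as reported) for WT tumour replicates 1 and 2 and TAp63-/- tumour replicate 2 (11, 5 and 1). The interaction count (4 as reported) became 15 without WT tumour replicate 1, and 1 without replicate 2 of either skin group. A filter at 5 FPKM left 9 members, without Bbc3. A sex covariate could not be fitted within skin, and a smaller set of libraries could not be used for the interaction. No paired analysis was possible because the labels give the groups no shared replicate numbers.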
